A study of Mus musculus with 8 samples.

Results

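Interferon-stimulated genes are the genes that cells switch on when they meet type I interferon, the secreted signal of viral infection. A given list of 40 known genes of this kind was matched by symbol to the count table. All 40 were found among its 53465 genes. RNA was sequenced from Ba/F3, an immortalised mouse pro-B cell line of the C3H strain background. The parental group, with wild-type U2AF35, had 3 libraries (parental 1, 2 and 3). The other group, Ba/F3 transformed with U2AF35(S34F), had 5 libraries (transformed 4, 5, 6, 7 and 8). U2AF35 is the small subunit of the splicing factor that reads the 3′ end of introns, and S34F is a recurrent leukaemia mutation in it. No interferon, virus or other inducer is named in the labels for either group, so the levels below are those of unstimulated cells as far as the labels say. Nothing in the labels says that the libraries within a group are independent cultures or clones, so a p-value here reflects only how far these particular libraries scatter, and that scatter may be technical. By their lane tags, lane 6 held parental 1 and 3 with transformed 5 and 8, whereas lane 7 held parental 2 with transformed 4, 6 and 7.

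Type I interferon binds a receptor at the cell surface, whose kinases phosphorylate STAT proteins, STAT2 among them. With IRF9 they form a complex, ISGF3, which binds the interferon-stimulated response element (ISRE) in the promoters of its target genes. Interferon gamma acts through a different element, the gamma-activated site (GAS). Many target genes, among them Irf7, Stat2, Irf9 and the RNA sensors, feed the same circuit, so a low tonic level is found in many cells without infection.

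The ISRE was looked for directly in the promoters of the members. RefSeq promoter windows, from 250 bases before to 50 bases after each gene's start on GRCm38.p6, were given for 31 of the 40 members. Some genes, such as Gbp3, had 2 windows, and matches were counted per gene. The ISRE core, spelt GAAA, any 2 bases and GAAA, was searched on both strands. It occurred in 19 of these 31 members (61.3%), against 1079 of all 27025 genes with a window (3.99%). The GAS core, spelt TTC, any 3 bases and GAA, was also searched on both strands. It occurred in 8 of the 31 members (25.8%) and in 9.55% of all genes with a window. The stretches below carry the matches for members that the results turn on. Capitals mark the matched ISRE letters, which appear as pairs of TTTC where the match lies on the opposite strand, and each stretch is written 5′ to 3′ along its gene. The Isg15 stretch, with 3 overlapping matches, is chr4:156200855-156200916 on the minus strand, and the Ifit1 stretch, with 2 separate matches, is chr19:34640765-34640833 on the plus strand. Ifit3 (chr19:34583353-34583436) and Ifit3b (chr19:34607749-34607832), both on the plus strand, held identical letters. The others are Gbp3 (chr3:142559992-142560021, plus strand), Stat2 (chr10:128270256-128270305, plus strand) and Ifi203 (chr1:173942508-173942537, minus strand).
Isg15: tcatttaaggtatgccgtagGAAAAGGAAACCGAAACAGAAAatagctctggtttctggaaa
Ifit1: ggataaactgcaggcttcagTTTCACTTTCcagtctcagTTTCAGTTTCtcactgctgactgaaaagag
Ifit3: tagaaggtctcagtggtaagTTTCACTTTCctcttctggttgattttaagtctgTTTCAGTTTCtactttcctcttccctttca
Ifit3b: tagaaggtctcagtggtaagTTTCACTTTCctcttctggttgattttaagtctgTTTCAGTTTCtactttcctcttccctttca
Gbp3: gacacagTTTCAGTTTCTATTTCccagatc
Stat2: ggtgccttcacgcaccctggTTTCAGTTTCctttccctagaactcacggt
Ifi203: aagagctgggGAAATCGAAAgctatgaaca
A match is a description of letters and does not show that a factor was bound there. Ifit2, a known target gene, had no ISRE match in its 2 windows and 1 GAS match.

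Library totals ran from 36122062 counts (transformed 7) to 50305573 (parental 1), and 17733 genes passed the filter on low counts. Levels are given as CPM, counts scaled to the size of the library. A gene with 0 counts could still have had up to 3 counts, or 0.0586 to 0.0857 CPM depending on the library, for counting error only. U2af1, which encodes U2AF35, was at 85.3 to 98.2 CPM in the parental libraries and 92.0 to 157 CPM in the transformed ones, and a gene count does not separate the introduced copy from the cell's own. Of the markers of the labelled pro-B type, Ptprc, Cd79a and Cd79b were counted in every library, while Pax5, Ebf1 and Rag2 had at most 2 counts and Rag1, Kit and Il7r had 0. T cell and fibroblast markers stayed at or below 46 and 21 counts in any library. Among the macrophage markers Marco was at 0 in all libraries, Csf1r, Itgam and Mrc1 had at most 18 counts, and Adgre1 was well expressed.

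Most of the 40 members did not pass the test between the groups, and the 2 that did moved in opposite directions. Ifi203, a DNA-binding protein of the PYHIN family, rose from near 0, and Ifit2, an RNA-binding effector, fell. Of the 33 members tested, 1 was higher and 1 lower in the transformed group (edgeR quasi-likelihood test, Benjamini-Hochberg adjusted p under 0.05 over all genes tested). That is 6.06% of the members tested, beside 3.01% of all genes, of which 0.908% were called higher and 2.1% lower. Of the 2 members, Ifi203 passed the low-count filter only through the transformed libraries. Among genes that were tested it thus had to differ, and the filter fixed its sign. At an unadjusted p under 0.05 there were 13 members, beside 22.2% of all genes. The signs leaned upward: 27 of the 33 log2 fold changes, Ifi203 included, were positive (81.8%, against 52.3% of all genes tested). The median of the 33 was 0.46, against 0.017 over all genes. The values of the members tested, with the standard error (SE) of each, are in the plot of log2 fold changes. Other settings called other numbers of members. With DESeq2 in place of edgeR, 6 members were higher (Ifi203, Gbp3, Oasl2, Usp18, Mx1 and Mx2) and 2 lower (Ifit2 and Ifi27l2a), when 10.4% of all genes were called. Limma-voom called Ifit2 only (3.24% of all genes), and with lane as a covariate no member passed in edgeR (0.53% of all genes, 8 members at an unadjusted p under 0.05). Lane 6 alone gave 9 members (Ifi203, Gbp3, Oasl2, Ifi35 and Mx2 higher and Herc6, Stat2, Ifi27l2a and Ifit2 lower) with 20.4% of all genes called. Without transformed 7 the calls were Ifi203 and Ifit2 (7.62% of all genes). Without transformed 4 there were 9 members (15.5% of all genes), and without transformed 4 and 7 there were 10 (28.9% of all genes). Without any 1 of the other 6 libraries 0 members were called by edgeR, when only 0.144% to 0.487% of all genes were called. At an unadjusted p under 0.05 these fits had 8 to 15 members, beside 2372 to 3434 of all genes.

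**Figure D1:**
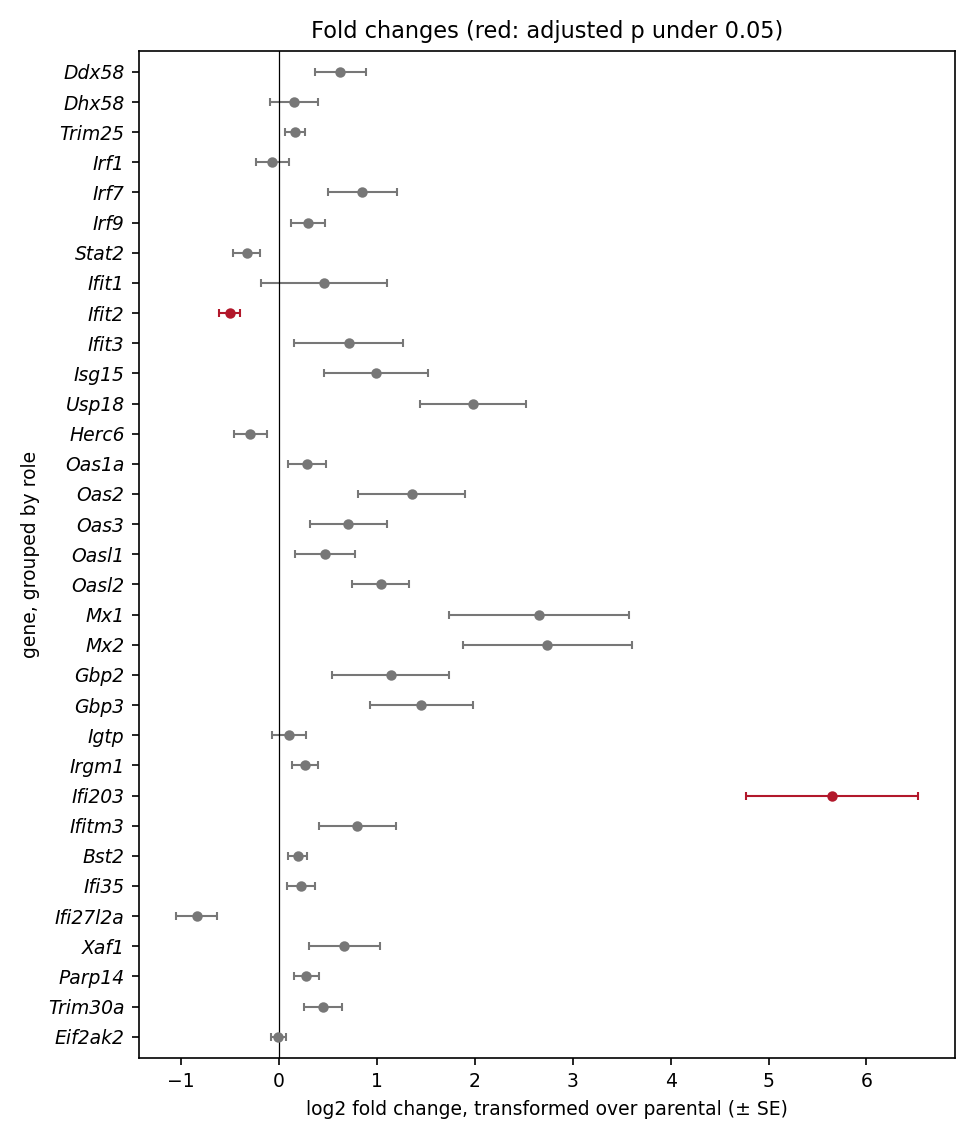
Log2 fold change, transformed over parental, of the 33 members tested (points) with the SE as bars; red points have an adjusted p under 0.05. Ifi203 is at 5.65 and Ifit2 at -0.51, and 27 of the 33 points lie to the right of 0.

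Levels rather than differences are compared per length of exon (CPM per kilobase). By this measure Ifitm3 was the most abundant member, at 271 in the parental and 471 in the transformed mean, followed by Bst2 at 57.1 and 65.1 and Trim25 at 18 and 20.2. Oas1a (13.1 and 16.0) and Ifi35 (12.4 and 14.5) came next, and these neighbours lay close together in both groups. Isg15, in many tissues a hallmark of interferon exposure, was at 1.76 in the parental and 3.53 in the transformed mean. The 7 members that did not pass the low-count filter were Ifit3b, Rsad2, Ifih1, Ifi44, Ifi204, Rtp4 and Cmpk2. In bulk RNA, fewer cells that express a gene and less RNA per cell cannot be told apart.

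The RNA sensors and their regulators showed no call, and 1 of the 4 had no counts. Ifih1, which encodes MDA5, the sensor of long double-stranded RNA, had 0 counts in all 8 libraries. Ddx58, which encodes RIG-I, the sensor of RNA ends, was at 37.3, 26.4 and 25.6 CPM in parental 1 to 3 and at 42.5, 30.9, 50.5, 69.7 and 36.4 CPM in transformed 4 to 8. The groups overlapped through transformed 5 and 8, and the log2 fold change of Ddx58 was 0.63 (SE 0.26, adjusted p = 0.201). Trim25, the ubiquitin ligase that helps activate RIG-I, was at 103.5 ± 7.20 CPM (SD, n = 3) in the parental and 116.3 ± 11.6 CPM (SD, n = 5) in the transformed group, a log2 difference of 0.17 (SE 0.10, adjusted p = 0.367). Dhx58, which encodes the related regulator LGP2, was at 2.35 ± 0.0961 and 2.60 ± 0.795 CPM. None of the 3 tested passed the edgeR threshold, 1 had an unadjusted p under 0.05 and DESeq2 called 0.

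The transcription factors of the response split in sign. Stat2, the ISGF3 subunit that carries its activation domain, was very even in the parental libraries at 63.4, 64.3 and 64.9 CPM. In transformed 4 it was at 65.8 CPM, and in transformed 5 to 8 at 48.7, 52.2, 45 and 43.5 CPM. Transformed 4 thus matched the parental level while the other 4 libraries were below every parental one. The log2 fold change of Stat2 over all libraries was -0.33 (SE 0.14, adjusted p = 0.193), and without transformed 4 it was -0.44 (adjusted p = 0.0146). Stat2 passed in 3 of 18 alternative settings, with negative values in all of them. Irf7, which amplifies interferon production, went the other way in its mean. It was at 8.56, 4.36 and 5.26 CPM in parental 1 to 3 and at 8.02, 7.22, 16.4, 15.0 and 8.06 CPM in transformed 4 to 8. Only transformed 6 and 7 exceeded parental 1, and the log2 fold change of Irf7 was 0.85 (SE 0.35, adjusted p = 0.198). It was 1.59 within lane 7, which holds both of these libraries, and 0.16 within lane 6. Irf9, the DNA-binding subunit of ISGF3, was at 15.97 ± 2.88 (SD, n = 3) and 19.62 ± 3.61 CPM (SD, n = 5), and Irf1, an early factor shared with interferon gamma, at 20.36 ± 1.0 and 19.41 ± 3.78 CPM. With edgeR 0 of the 4 passed, 2 had an unadjusted p under 0.05 (Stat2 and Irf7), and DESeq2 called 0.

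The 4 IFIT genes, which encode RNA-binding proteins that block translation of viral RNA, lie side by side on chromosome 19 but their values differed in direction. Ifit2 (ENSMUSG00000045932, chr19:34550694-34576419, GRCm38) was at 37.1, 30.9 and 37.4 CPM in parental 1 to 3. In transformed 4 to 8 it was at 27.1, 23.7, 26.9, 21.7 and 24.4 CPM. All 5 transformed libraries were below all 3 parental ones. For Ifit2 the fitted log2 fold change was -0.51 (SE 0.11), a 1.42-fold fall with an adjusted p = 0.0474. It was -0.62 (adjusted p = 0.00814) within lane 6 and -0.30 within lane 7, and adjusted p rose to 0.105 with lane as a covariate.

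Ifit1 (chr19:34640871-34650009) varied within both groups. It was at 5.08, 3.48 and 1.58 CPM in parental 1 to 3 and at 0.990, 3.08, 9.86, 5.48 and 3.98 CPM in transformed 4 to 8. Its lowest and highest values, in transformed 4 and 6, both belonged to the transformed group, and the log2 fold change of Ifit1 was 0.46 (SE 0.64, adjusted p = 0.723). Ifit3 had 11, 18 and 11 counts in the parental libraries and 9, 15, 48, 13 and 16 in transformed 4 to 8, so only transformed 6 stood apart. Ifit3b had at most 10 counts, also in transformed 6. These low counts are uncertain between the pair: 51.2% of the 50-base words in the transcripts of Ifit3 also occur in another gene, most often Ifit3b, whereas those of Ifit2 were not shared.

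Several genes near Ifit2 also had negative values. Chromosome 19 as a whole was shifted: over its 511 genes tested the median log2 fold change was -0.34, with 2 genes called higher and 76 lower (15.3% called). Within 500 kb of the Ifit2 start 9 genes were tested and 6 had negative values, Ifit2 included in both counts. Among the others were Kif20b at -0.55 (SE 0.12, adjusted p = 0.0447), Fas at -0.63 (SE 0.19, adjusted p = 0.104) and Lipa at -0.47 (SE 0.11, adjusted p = 0.0609). Acta2 was at -0.18 with a wide SE of 0.50, and Stambpl1, Ifit1 and Ifit3 had positive values. The value of Ifit2 lay between those of Lipa and Kif20b. The part of the chromosome-wide shift in the Ifit2 result was not tested.

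**Figure D2:**
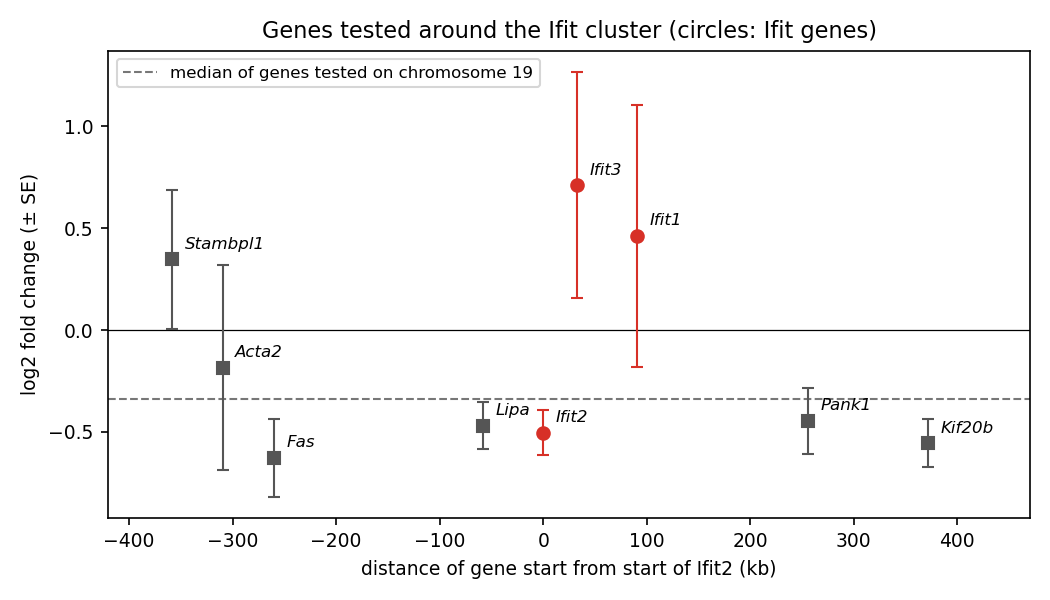
Log2 fold change, transformed over parental, with its SE (bars), of the 9 genes tested within 500 kb of the Ifit2 start, against distance in kb; the dashed line is the chromosome 19 median of -0.34. Ifit2 lies at -0.51 among Fas, Lipa, Pank1 and Kif20b, while Ifit1 and Ifit3 lie above 0 with wide bars.

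In the ISG15 system no gene passed the threshold, although Usp18 was higher in every transformed library. Isg15 encodes a ubiquitin-like protein that is joined to other proteins, Usp18 removes it and also restrains the interferon receptor, and Herc6 is the ligase that attaches it in mouse cells. Usp18 (ENSMUSG00000030107, chr6:121245906-121270917) was at 0.821, 0.540 and 0.570 CPM in parental 1 to 3 and at 1.49, 1.59, 5.0, 3.63 and 1.12 CPM in transformed 4 to 8. All 5 transformed values were above the parental ones, with transformed 6 and 7 highest. On the log2 scale the fitted difference of Usp18 was 1.98 (SE 0.54, adjusted p = 0.0795). It was 0.97 within lane 6, 2.63 within lane 7 and 1.60 without transformed 6. DESeq2 gave Usp18 an adjusted p = 0.00206, and edgeR gave 0.0350 without transformed 4. These were the only 2 of 18 alternative settings in which Usp18 passed. With lane as a covariate its adjusted p in edgeR was 0.165, and with limma-voom it was 0.117.

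Isg15 itself was at 1.86, 1.28 and 0.855 CPM in the parental libraries and at 0.949, 1.65, 5.04, 3.74 and 1.97 CPM in transformed 4 to 8. Transformed 6 and 7 were again highest, while transformed 4 and 5 lay within the parental range, and the adjusted p of Isg15 was 0.309 for a log2 fold change of 0.995 (SE 0.53). Herc6 went the other way in its mean, 23.9 ± 3.72 CPM (SD, n = 3) in the parental and 19.5 ± 3.65 CPM (SD, n = 5) in the transformed group, with an adjusted p = 0.336. In edgeR 0 of the 3 passed, 1 had an unadjusted p under 0.05, and DESeq2 called 1.

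The OAS family, named for enzymes that make the 2-5A messenger in response to double-stranded RNA, had positive log2 fold changes in all 5 members (median 0.71), and none passed the edgeR threshold. Oasl2 and Oas2, 2 of the 5, had an unadjusted p under 0.05, and DESeq2 called Oasl2. Oasl2, an OAS-like protein, was at 6.20, 3.54 and 4.43 CPM in parental 1 to 3 and at 6.12, 8.59, 14.6, 10.9 and 8.33 CPM in transformed 4 to 8. Only transformed 4 fell within the parental range. The log2 fold change of Oasl2 was 1.04 (SE 0.29, adjusted p = 0.0861), and 0.68 (adjusted p = 0.0412) within lane 6. Oasl2 passed in 4 of 18 alternative settings.

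Oas2 followed another order of libraries. It was at 1.39, 2.04 and 2.37 CPM in the parental libraries and at 6.26, 1.63, 6.58, 8.20 and 2.09 CPM in transformed 4 to 8. The high libraries, transformed 4, 6 and 7, are the transformed libraries of lane 7, and the other 2 lay within the parental range. For Oas2 the fitted log2 fold change was 1.35 (SE 0.55, adjusted p = 0.193), and 0.0054 within lane 6. Oas3 ran from 8.09 to 11.6 CPM in the parental group and from 7.21 to 25.2 CPM in the transformed group, and Oasl1 from 4.65 to 8.88 and from 5.41 to 11.4 CPM. Oas1a was at 24.7 ± 3.39 CPM (SD, n = 3) in the parental and 30.1 ± 7.71 CPM (SD, n = 5) in the transformed group, a log2 difference of 0.28 (SE 0.20, adjusted p = 0.428) that turned to -0.038 within lane 6. More than other members it is uncertain, since 57.6% of its 50-base words occur in another gene, most often Oas1g.

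Mx proteins and the interferon-inducible GTPases, large GTPases that trap viral capsids or coat pathogen vacuoles, had positive log2 fold changes in 6 of 6 members, with a median of 1.30. With edgeR 0 passed, 3 had an unadjusted p under 0.05, and DESeq2 called those 3 (Mx1, Mx2 and Gbp3) higher. Mx1 (chr16:97447035-97462907) was at 0.137, 0.120 and 0.373 CPM in parental 1 to 3 and at 0.828, 0.774, 4.03, 0.486 and 0.465 CPM in transformed 4 to 8. The groups did not overlap, but transformed 6 alone was far above the rest. Without transformed 6 the log2 fold change of Mx1 was 1.62 in place of 2.66 (SE 0.92, adjusted p = 0.140).

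Mx2, the neighbouring gene (chr16:97535308-97560900), was at 0.411, 0.0799 and 0.219 CPM in the parental libraries and at 0.283, 1.15, 3.90, 1.80 and 0.909 CPM in transformed 4 to 8. Here transformed 4 stayed within the parental range, unlike for Mx1. Mx2 had a log2 fold change of 2.74 (SE 0.87, adjusted p = 0.115), and 1.70 (adjusted p = 0.0205) within lane 6. It passed in 4 of 18 alternative settings. Gbp3, a guanylate-binding protein, was at 5.98, 2.88 and 4.78 CPM in the parental libraries and at 2.85, 13.3, 18.6, 14.5 and 12.9 CPM in transformed 4 to 8. Transformed 4 was as low as the lowest parental library and the other 4 were more than 12 CPM. The log2 fold change of Gbp3 was 1.45 (SE 0.53, adjusted p = 0.156), and 1.70 (adjusted p = 0.00632) without transformed 4. Gbp3 passed in 4 of 18 alternative settings. Gbp2 ran from 0.848 CPM in transformed 4 to 5.28 CPM in transformed 7, Irgm1 from 22.5 to 32.2 CPM and Igtp from 8.44 to 13.4 CPM over all libraries, with overlapping groups.

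Ifi203 (ENSMUSG00000039997, chr1:173920407-173942672) had the largest log2 fold change of the members. Its counts were 1, 6 and 7 in parental 1 to 3 and 43, 257, 218, 302 and 254 in transformed 4 to 8, that is 0.0195, 0.120 and 0.153 CPM and then 0.869, 5.10, 4.80, 8.63 and 5.37 CPM. Every transformed library was above every parental one, and transformed 4 was the lowest of the 5. For Ifi203 the fitted log2 fold change was 5.65 (SE 0.88, adjusted p = 0.0236), 5.95 (adjusted p = 0.00349) within lane 6 and 5.27 within lane 7. With lane as a covariate the adjusted p of Ifi203 was 0.0508, and with limma-voom 0.0528. It passed the low-count filter only through the transformed libraries, so among genes that were tested it had to differ, and its size rests on 14 parental counts.

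The PYHIN genes, which encode proteins that bind DNA in the nucleus or cytosol, form a cluster on chromosome 1. Ifi203 and Mndal overlap there on the same strand, and 12.4% of the 50-base words of Ifi203 occur in other genes, most often its pseudogene Ifi203-ps, so their reads may be shared out uncertainly. Mndal had 0, 2 and 5 counts and then 12, 48, 43, 60 and 69 counts, a log2 fold change of 4.38 (SE 0.87, adjusted p = 0.0365). Like Ifi203, Mndal passed the low-count filter only through the transformed libraries, so among genes that were tested it had to differ. Ifi203-ps, chosen after its values were seen, had 0, 2 and 4 counts and then 10, 42, 52, 52 and 44 counts. In both, as in Ifi203, transformed 4 was the lowest of the transformed libraries. The member Ifi204 had 0, 1 and 1 counts in the parental libraries and 1, 5, 5, 8 and 4 counts in transformed 4 to 8, too few for the test. Over all 1144 genes tested on chromosome 1 the median log2 fold change was 0.026.

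The membrane-acting effectors held the most abundant member and 3 of the 7 that were too low to test. Ifitm3, which blocks fusion of viruses in endosomes, was at 297, 148 and 105 CPM in parental 1 to 3 and at 146, 355, 368, 361 and 368 CPM in transformed 4 to 8. Transformed 5 to 8 lay within a narrow band above parental 1, while transformed 4 was at the level of parental 2. Ifitm3 had a log2 fold change of 0.80 (SE 0.40, adjusted p = 0.276). Bst2, or tetherin, which holds budding virus at the cell surface, was at 51.6 ± 5.21 CPM (SD, n = 3) in the parental and 58.8 ± 4.11 CPM (SD, n = 5) in the transformed group, a log2 difference of 0.19 (SE 0.10, adjusted p = 0.300). In edgeR 0 of these 2 passed, 0 had an unadjusted p under 0.05, and DESeq2 called 0. Rsad2, which encodes viperin, had 13, 4 and 2 counts and then 0, 2, 20, 6 and 2 counts. Rtp4 had 0, 0 and 1 counts and then 0, 2, 21, 2 and 0. Cmpk2, which lies beside Rsad2 and encodes a nucleotide kinase, had at most 1 count in any library. For Rsad2 and Rtp4 the highest library was again transformed 6.

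Among the remaining effectors the flattest member was Eif2ak2, which encodes PKR, the kinase that stops translation on double-stranded RNA. It was at 61.6, 60.1 and 66.5 CPM in parental 1 to 3 and at 61.5, 63.3, 62.7, 61.9 and 62.9 CPM in transformed 4 to 8. Its log2 fold change was -0.0057 (SE 0.075), although the Eif2ak2 promoter window holds an ISRE match. Ifi27l2a was at 3.58, 4.56 and 4.98 CPM and then at 3.47, 2.40, 2.0, 2.03 and 2.26 CPM. The groups of Ifi27l2a did not overlap, transformed 4 being just under parental 1, and the log2 fold change was -0.84 (SE 0.21, adjusted p = 0.0624). Trim30a, a regulator of inflammatory signalling, ran from 39.0 to 51.6 CPM in the parental and from 44.9 to 84.4 CPM in the transformed group. Ifi35, a partner of Nmi, was at 21.5 ± 3.68 CPM (SD, n = 3) in the parental and 25.1 ± 2.71 CPM (SD, n = 5) in the transformed group, a log2 difference of 0.22 (SE 0.14, adjusted p = 0.379). Xaf1, an antagonist of the XIAP apoptosis inhibitor, reached 8.08 and 10.5 CPM in transformed 6 and 7 against 3.27 to 4.68 CPM in the other 6 libraries. Parp14, an ADP-ribosyltransferase, was at 44.9 ± 4.94 CPM (SD, n = 3) in the parental and 54.4 ± 6.98 CPM (SD, n = 5). Ifi44 had 1 count in transformed 5, 7 in transformed 6 and 0 elsewhere. Of the 6 tested in this group, edgeR called 0, 2 had an unadjusted p under 0.05, and DESeq2 called 1 lower.

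**Figure D3:**
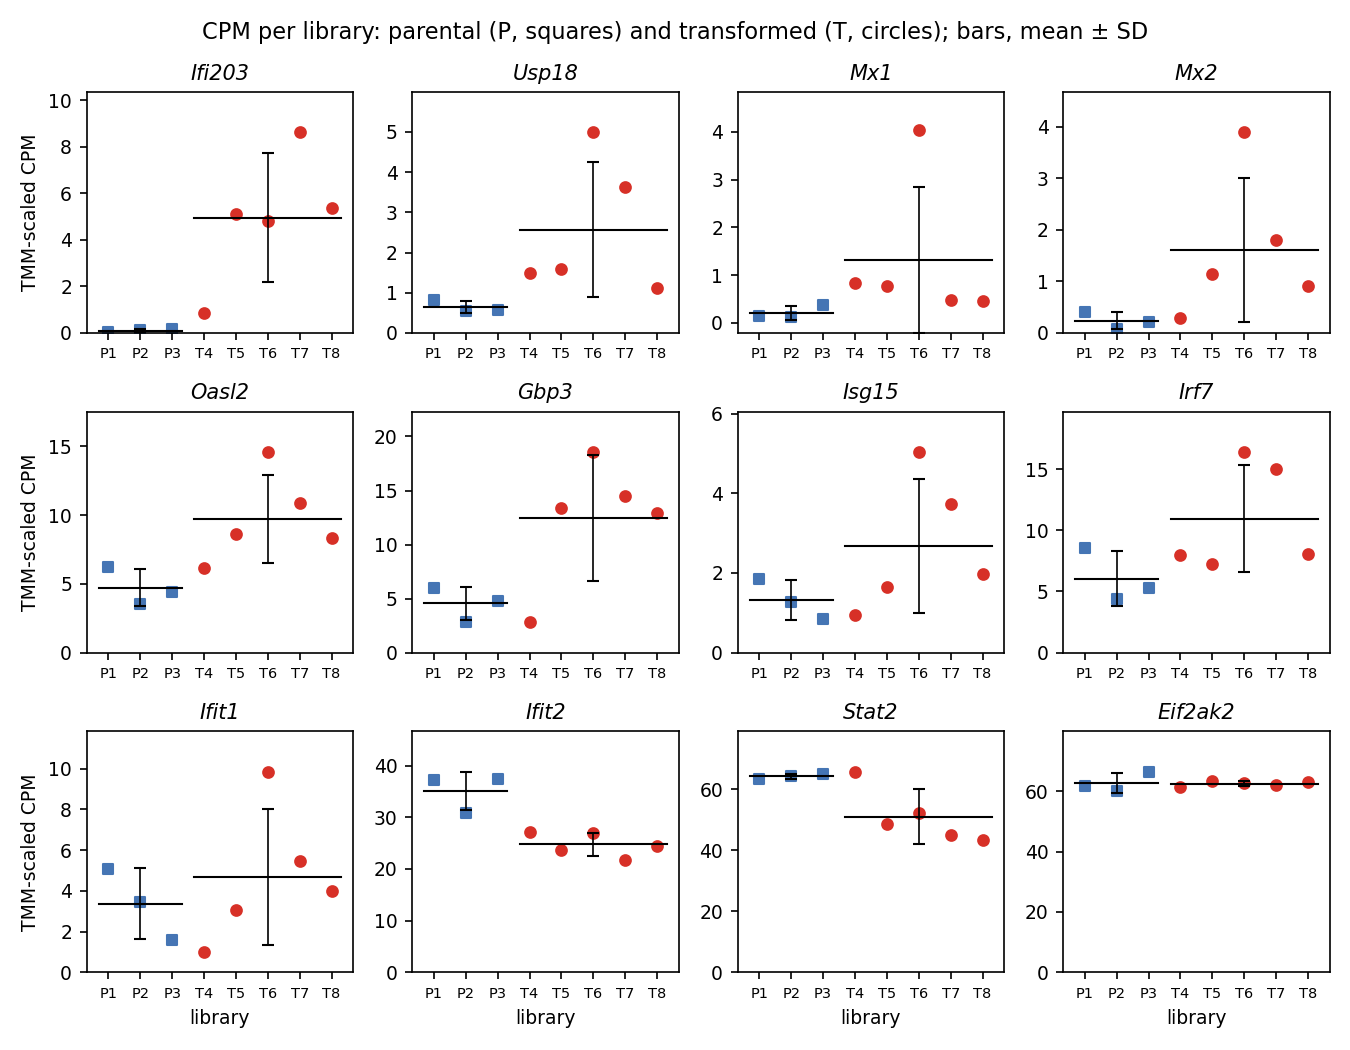
CPM of 12 members in each library on linear axes that include 0, parental libraries as squares and transformed libraries as circles, with the group mean ± SD as bars. Ifi203, Usp18 and Mx1 are above every parental library in all 5 transformed libraries, Ifit2 is below in all 5, and Eif2ak2 is at about the same level in all 8.

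Of the 33 tested, 5 had groups that did not overlap (15.2%), beside 17.8% of all genes. They were Ifi203, Usp18 and Mx1 above the parental group (8.07% of all genes lay above) and Ifit2 and Ifi27l2a below it (9.69%). Ifi203 passed the low-count filter only through the transformed libraries. In most members the ranges of the groups overlapped.

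The transformed libraries differed among themselves in the members. The SD of log2 CPM over these 5 libraries had a median of 0.45 over the members, against 0.26 over all genes tested. The parental libraries also differed more in the members, 0.25 against 0.13. The members tested were somewhat lower in expression, with a median average log2 CPM of 3.33 against 3.95 over all genes, and the part of this in the spread was not tested.

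The upward lean was largest in transformed 6 and 7. Relative to the parental mean, the median log2 difference of the 33 members was -0.0093 in transformed 4, 0.14 in transformed 5, 0.78 in transformed 6, 0.84 in transformed 7 and 0.32 in transformed 8. The same median over all genes stayed within 0.01 of 0 in every library. Transformed 6 held the highest of the 5 values in 14 members (42.4%, against 10.1% of all genes) and transformed 7 in 12 (36.4%, against 31.9%). Transformed 4 held the lowest value in 19 members (57.6%, against 26.3% of all genes). In transformed 6, 27 of 33 members lay above all 3 parental libraries, beside 35.3% of all genes, and in transformed 4 there were 11, beside 34.8%.

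Among the parental libraries, parental 1 had the highest value in 21 of 33 members (63.6%, against 34.5% of all genes), with a median of 0.15. It was thus above transformed 4 and level with transformed 5 in the median of the members. Both groups held libraries with a higher and a lower level. Transformed 4, 6 and 7 shared lane 7, and the part of the lanes in these levels was not tested. The heatmap of members by library shows the columns of transformed 6 and 7 as the most uniformly raised.

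**Figure D4:**
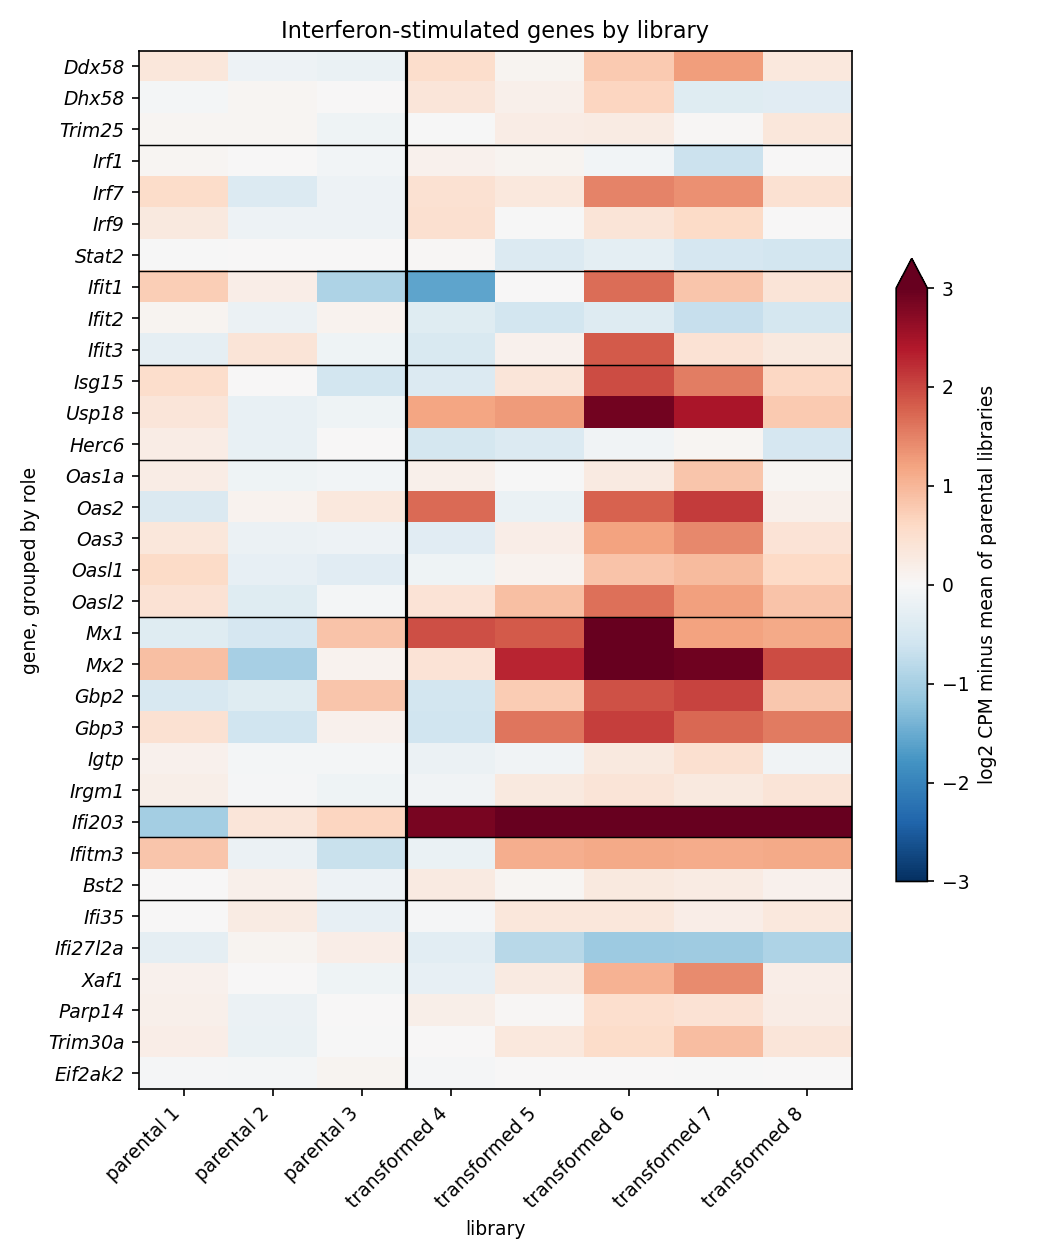
Log2 CPM (prior count 2) of the 33 members tested in each of the 8 libraries, minus the mean of the parental libraries, with colours limited beyond a difference of 3 in either direction. The columns of transformed 6 and 7 are raised in most rows (27 and 24 members above all parental libraries), and that of transformed 4 in 11.

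**Figure D5:**
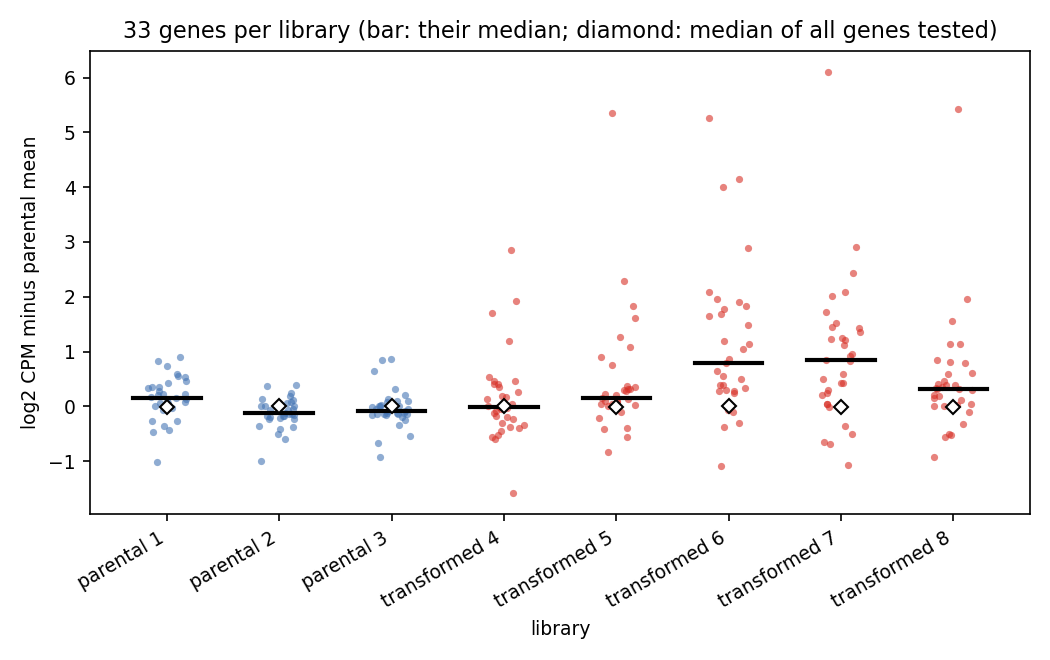
The same log2 differences as points for each library, with the median of the members as a bar and the median of all genes tested as a diamond. The bars of transformed 6 and 7 are at 0.78 and 0.84, that of transformed 4 at -0.0093, and the diamonds are near 0 in every library.

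Members with and without the ISRE letters overlapped in their differences between the groups. The 16 tested members with an ISRE match had a median log2 fold change of 0.55, from -0.33 (Stat2) to 5.65 (Ifi203), and 14 were positive. The 10 tested members whose windows held no match had a median of 0.26, and 7 were positive. Isg15, with 3 matches, and Eif2ak2, with a match and no difference, belong to the first set, and Oasl2, Irf7 and Ifit2 to the second. The 7 tested members that the promoter table does not hold had a median of 1.35. No difference between these sets was tested.

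The interferons themselves were close to absent. Of 21 interferon genes 10 had 0 counts in all 8 libraries, which allows up to 0.0857 CPM each in the shallowest one. Ifnb1, the first interferon made in infected cells of many types, had 2, 0 and 0 counts in parental 1 to 3 and 0, 0, 1, 0 and 1 counts in transformed 4 to 8. The highest count of the list was 28, for Ifnz in parental 3, the only gene of the list that was tested. Its log2 fold change was -0.36 (SE 0.28, edgeR unadjusted p = 0.225, adjusted p = 0.483), and it was not called by DESeq2 either.

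Receptors and their kinases were expressed in both groups, and none passed the edgeR threshold. Of 10 genes 9 were tested, with a median log2 fold change of -0.073, 3 had an unadjusted p under 0.05, and DESeq2 called 3 lower. Over all genes tested, 22.2% had an unadjusted p under 0.05 and DESeq2 called 10.4% in either direction. Ifnar1 and Ifnar2, the type I receptor chains, were at 54.99 ± 4.81 and 29.6 ± 5.36 CPM (SD, n = 3) in the parental group and at 52.3 ± 7.52 and 28.4 ± 6.72 CPM (SD, n = 5) in the transformed group. Ifngr1, a chain of the interferon gamma receptor, was at 31.6, 55.4 and 48.5 CPM and then at 33.2, 20.8, 25.1, 24.7 and 23.1 CPM, a log2 fold change of -0.83 (SE 0.20, adjusted p = 0.0572). Tyk2, the kinase bound to Ifnar1, was at 111.4 ± 3.98 and 90.5 ± 3.87 CPM, a log2 fold change of -0.30 (SE 0.074, adjusted p = 0.0619). The groups of Tyk2 did not overlap, whereas transformed 4 reached the lowest parental level of Ifngr1.

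In the machinery that senses nucleic acids and induces interferon, 19 of 24 genes were tested, with a median log2 fold change of 0.087. Cgas, the cytosolic DNA sensor, was at 37.96 ± 2.20 CPM in the parental (SD, n = 3) and at 52.1 ± 4.77 CPM (SD, n = 5) in the transformed group, a log2 difference of 0.46 (SE 0.10, adjusted p = 0.0503) that just missed the threshold, with groups that did not overlap. Trex1 and Tlr8 were at 0 in all libraries.

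The negative regulators held 12 genes, all tested, of which edgeR called 0 higher and 1 lower. At an unadjusted p under 0.05 there were 4, and DESeq2 called 0 higher and 2 lower. Isg20, which the wider list of interferon-induced genes below also holds, is among the 4 and was higher (log2 fold change 0.73, adjusted p = 0.214). Over all genes tested, edgeR called 3.01%, 22.2% had an unadjusted p under 0.05, and DESeq2 called 10.4%. Socs3, a feedback inhibitor of JAK kinases, was at 8.62, 29.6 and 28.8 CPM in parental 1 to 3 and at 5.54, 6.61, 8.28, 6.63 and 8.69 CPM in transformed 4 to 8. Parental 1 was as low as the transformed libraries, so the fall of 1.64 on the log2 scale (SE 0.35, adjusted p = 0.0451) rested on parental 2 and 3. Pias4, an inhibitor of STAT signalling, was next by p, at 19.6 ± 1.18 and 15.3 ± 1.73 CPM (adjusted p = 0.117).

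A wider list of 56 interferon-induced genes outside the 40 had 47 tested, 3 higher and 1 lower, and a median log2 fold change of 0.19. Over all genes tested, 0.908% were called higher and 2.1% lower. In this list 14 genes had an unadjusted p under 0.05, beside 22.2% of all genes. DESeq2 called 8 higher and 3 lower, when 10.4% of all genes were called in either direction. Epsti1, an interferon-induced gene of macrophages and stroma, rose from 14.3 ± 1.90 CPM (SD, n = 3) to 27.0 ± 3.76 CPM (SD, n = 5) in the transformed group, a log2 difference of 0.92 (SE 0.15, adjusted p = 0.0236). Phf11d rose from 0.696 ± 0.0328 to 1.49 ± 0.358 CPM, a log2 fold change of 1.09 (SE 0.22, adjusted p = 0.0386). Both lie on chromosome 14, where 22 of 690 genes tested were higher and 6 lower, and the part of this in their values was not tested. Mndal, described above, was the third called higher, and it passed the low-count filter only through the transformed libraries. Oas1c, an OAS gene, fell from 9.09 ± 0.173 to 5.35 ± 0.959 CPM, a log2 fold change of -0.76 (SE 0.15, adjusted p = 0.0368), whereas the 5 OAS members had positive values.

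Other interferon-inducible GTPases differed widely among the transformed libraries. All 13 of 15 genes that were tested had positive log2 fold changes, with a median of 2.07. Of these, Gbp8 and Gbp11 passed the low-count filter only through the transformed libraries, so the filter fixed their sign. None passed the edgeR threshold, and 9 had an unadjusted p under 0.05, beside 22.2% of all genes. DESeq2 called 7 higher, when 10.4% of all genes were called in either direction. Tgtp2, a T cell GTPase by name, had the smallest p, at 3.11, 4.46 and 4.58 CPM and then 3.94, 9.64, 15.4, 10.3 and 9.60 CPM, a log2 fold change of 1.27 (SE 0.37, adjusted p = 0.0957). Gbp4 was at 0.215, 0.240 and 0.373 CPM and then at 0.121, 2.80, 4.31, 12.2 and 3.45 CPM, a log2 fold change of 4.04 (SE 1.18, adjusted p = 0.0989). Transformed 4 had the lowest transformed value in all 13, transformed 7 the highest in 10 and transformed 6 in 3. Summed over the list, the level was 58.0 to 77.7 CPM in the parental libraries and 38.9 to 291 CPM in the transformed ones.

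Of the macrophage and monocyte markers, Adgre1 moved in part with these GTPases. Adgre1, which encodes F4/80, was at 332, 256 and 230 CPM in parental 1 to 3 and at 48.4, 176, 238, 404 and 269 CPM in transformed 4 to 8, again lowest in transformed 4 and highest in transformed 7. Summed over the 8 markers, mostly Adgre1, the level was 243 to 345 CPM in the parental and 57.7 to 417 CPM in the transformed libraries. By edgeR 1 of the 4 tested, Cd68, was called lower (-0.46, SE 0.10, adjusted p = 0.0484), beside 2.1% of all genes. Cd68 was even over the transformed libraries at 7.99 ± 0.427 CPM (SD, n = 5), and Cd14 was highest in transformed 6. Unlike the GTPases, Adgre1 was as high in the parental libraries as in most transformed ones. The part of these markers in the levels of the interferon-stimulated genes was not tested.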

How the data were processed

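RNA was measured by polyA RNA sequencing. The values are raw read counts per Ensembl gene as deposited by the authors, 1 column per library (0 columns outside the 8 libraries). The aligner STAR 2.5.3a and the counter featureCounts 1.5.3 are named per the submitters' processing notes, with mm10 and GRCm38.p5 as builds. Not given in the sources used here: strand setting, reads mapping to several places, annotation release and read length. Therefore counts of paralogs and overlapping genes are uncertain.

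The members and lists were chosen with earlier results of these data known. Symbols and coordinates came from GENCODE on GRCm38, and 105 genes without a symbol held 0.0212% of counts. Of the list symbols, 3 older names were translated. In R 4.3.3, all genes were fitted with edgeR 4.0.16 (genes kept by filterByExpr, scaling by TMM, and a 2-sided quasi-likelihood F test with robust dispersion) with Benjamini-Hochberg adjustment over the 17733 genes tested and a threshold of 0.05, after the code was tested on simulated data. CPM values are TMM-scaled, and log2 CPM used a prior count of 2. Total counts of 36122062 to 50305573 give the precision stated in the text. No test was run over a list as a whole. All members were named by role. Full statistics went to members past the threshold, the 12 with the smallest p and the 5 with the highest CPM per kilobase. From other lists up to 5 genes past the threshold and the 2 with the smallest p were named, and other genes are given as examples. Alternatives were DESeq2 1.42.0, limma-voom (limma 3.58.1), other scaling factors and filters, lane as a covariate or each lane alone, and each library left out. Promoters came from the RefSeq table by symbol. Some genes of the marker and pathway lists are not reported here.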

Additional observations from a re-analysis of the deposited data

Results flagged for a closer look

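The 5 transformed libraries were examined for a single distant value in 17 members, and 4 members had one. Dixon's test with its 95% critical value was taken on log2 CPM, while the values below are printed as CPM. Chance gives such a value in about 1 in 20 groups. Transformed 4 was the low library in 3 of them: Ifi203 at 0.869 CPM, against 4.80 to 8.63 CPM in the other transformed libraries, Gbp3 at 2.85 CPM, against 12.9 to 18.6 CPM, and Ifitm3 at 146 CPM, against 355 to 368 CPM. Transformed 6 was the high library in Mx1, at 4.03 CPM, against 0.465 to 0.828 CPM. No cause was tested.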

How the results depend on the processing

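Against 161 genes higher and 372 lower, with 1 member each, DESeq2 gave 850 and 1001 genes and 6 and 2 members. Limma-voom called 0 members higher, and upper-quartile factors and no filter called 0 lower. Lane as a covariate gave 15 and 79 genes, and 0 and 0 members, with 8 members at an unadjusted p under 0.05. Lane 6 alone (2 libraries a group) gave 1682 and 1883 genes and 5 and 4 members. Lane 7 alone, where 1 parental library is assumed to vary like the transformed ones, gave 0 and 0 genes and 0 and 0 members, with 507 genes and 6 members at an unadjusted p under 0.05. Leaving out 1 library at a time gave 3 to 1100 genes higher and 21 to 1628 lower, and 0 to 6 members higher and 0 to 3 lower. The highest counts came without transformed 4 (15.5% of genes called). Without any 1 of parental 1, 2 and 3 and transformed 5, 6 and 8, 0 members were called (0.144% to 0.487% of genes called). Without both transformed 4 and 7 there were 2238 and 2804 genes and 7 and 3 members. The median log2 fold change of the members stayed positive, from 0.19 (lane 6 alone) to 0.73 (lane 7 alone). Of 17 members with full statistics, 15 kept their sign in every alternative, while Oas1a turned to -0.038 in lane 6 alone and Ifi35 to -0.079 in lane 7 alone. Ifi203 passed in 9 of 18 alternatives (log2 fold change 5.16 to 6.11) and Ifit2 in 8 of 18 (-0.62 to -0.30). Causes were not tested. No paired analysis was possible because the groups share no replicate numbers. Genes under about 3 counts a library could not be compared at this depth.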

Other observations

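Slfn2, a Schlafen gene named here after its values were seen, was at 6.16, 5.82 and 2.63 CPM in parental 1 to 3 and at 3.70, 17.3, 39.5, 82.2 and 22.7 CPM in transformed 4 to 8. Gvin1, a very large interferon-inducible GTPase also named after its values were seen, was at 10.05, 7.57 and 7.80 CPM and then at 0.667, 35.7, 64.6, 110 and 48.1 CPM, so that transformed 4 was below every parental library and the other 4 above all of them. The log2 fold change of Gvin1 was 2.61 (SE 1.10, adjusted p = 0.212 with edgeR).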
